A study of Mus musculus with 74 samples.

Results

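GPS2 peaks without active histone marks are the sites in the WT mouse liver where the corepressor subunit GPS2 was found on chromatin while no peak of H3K27ac or H3K4me3 lay over it. They were chosen by position alone: a peak of the GPS2 ChIP-seq of the Gps2 WT liver counted as unmarked if it shared no base pair with any peak of the 2 H3K27ac and the 2 H3K4me3 libraries of Gps2 WT livers. The rule left 7403 of 48968 GPS2 peaks (15.1%). Of the other GPS2 peaks, 21225 lay under H3K4me3 and 20340 under H3K27ac without H3K4me3, and these 2 classes serve for comparison. At the edge of the rule, 639 unmarked peaks lay within 100 bp of a mark peak (median 43 bp) and 1204 marked peaks were covered in part only (median 74.5 bp shared), with a median of 14 GPS2 tags in both sets.

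The 74 libraries, 8 of RNA-seq, 64 of ChIP-seq (sequencing of chromatin bound by an antibody's target) and 2 of input DNA, came from livers of C57BL/6 mice aged 8 to 12 weeks on normal chow. In the Gps2 LKO, Cre driven by the albumin promoter removed floxed Gps2 in hepatocytes, so other liver cells keep the gene, and WT were floxed littermates without Cre. The Ncor LKO and Smrt LKO lack these corepressors in the liver, the Ppara KO lacks Ppara in the whole body, and each line has its own WT group. H3K27ac was measured in 2 livers per genotype of the Gps2 line and 3 per genotype of the Ncor and Smrt lines, PPARα, NCOR and GPS2 in 2 or 3 per genotype of the lines in which they were profiled, and GPS2 in the Gps2 line in 1 WT and 1 LKO library. The libraries pool 2 to 4 immunoprecipitations, and nothing in the labels says which libraries share an animal, so p-values measure the spread between these libraries. Livers are bulk tissue, and fewer cells of a type cannot be told apart from less RNA or less binding per cell.

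GPS2 is a small subunit of the corepressor complex that NCOR or SMRT builds with the histone deacetylase HDAC3, and nuclear receptors such as PPARα, the fatty acid sensor of the liver, recruit the complex to DNA. H3K27ac marks active promoters and enhancers, and H3K4me3 marks promoters. PPARα binds, with its partner RXR, to a direct repeat of the nuclear receptor site AGGTCA with 1 base between the copies (DR1), whereas REV-ERB and ROR receptors bind a single copy with an A/T-rich stretch before it (called the extended site here).

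The sequences show what unmarked GPS2 sites look like (genome build mm9, plus strand, read from the mm9 genome). The first 3 are the members with the most GPS2 tags among those with an exact DR1, and the capitals mark AGGTCA, any base and AGGTCA on either strand.
Odc1 member, chr12:17608555-17608691: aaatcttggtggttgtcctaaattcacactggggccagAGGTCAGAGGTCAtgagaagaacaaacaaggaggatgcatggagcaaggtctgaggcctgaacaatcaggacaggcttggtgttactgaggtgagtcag
Commd7 member, chr2:153410169-153410305: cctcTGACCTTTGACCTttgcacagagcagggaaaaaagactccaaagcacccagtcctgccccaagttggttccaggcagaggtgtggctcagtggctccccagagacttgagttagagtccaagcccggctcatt
Mir378b member, chr11:88270450-88270586: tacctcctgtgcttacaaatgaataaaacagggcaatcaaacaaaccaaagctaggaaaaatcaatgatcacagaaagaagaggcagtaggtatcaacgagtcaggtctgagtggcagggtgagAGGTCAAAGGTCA

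The next pair are the members with the most GPS2 tags among those with an exact extended site, in capitals (AANT followed by AGGTCA on either strand).
1700012I11Rik member, chr15:67255591-67255727: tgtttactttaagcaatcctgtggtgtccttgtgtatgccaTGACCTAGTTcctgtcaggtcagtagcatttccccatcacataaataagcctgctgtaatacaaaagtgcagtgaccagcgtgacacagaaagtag
Glipr2 member, chr4:43977523-43977659: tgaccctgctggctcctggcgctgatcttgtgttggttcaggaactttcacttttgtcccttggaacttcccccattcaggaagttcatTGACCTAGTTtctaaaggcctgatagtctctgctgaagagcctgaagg

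The last 3 are members to which the results below return. The one nearest Rab10os had the most GPS2 tags of all and lies in a major satellite repeat, the one nearest Cpne5 lost GPS2 both in the Ncor LKO and the Ppara KO and carries a DR1 with 2 mismatches (capitals), and the one nearest Pnpla3 leads the lipogenic genes.
Rab10os member, chr12:3109913-3110049: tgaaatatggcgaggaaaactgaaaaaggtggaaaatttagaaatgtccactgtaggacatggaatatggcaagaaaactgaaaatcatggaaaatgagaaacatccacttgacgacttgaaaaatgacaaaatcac
Cpne5 member, chr17:29347083-29347219: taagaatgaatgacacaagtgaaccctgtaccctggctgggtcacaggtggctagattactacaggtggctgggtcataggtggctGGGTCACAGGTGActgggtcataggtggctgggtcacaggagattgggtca
Pnpla3 member, chr15:83986586-83986722: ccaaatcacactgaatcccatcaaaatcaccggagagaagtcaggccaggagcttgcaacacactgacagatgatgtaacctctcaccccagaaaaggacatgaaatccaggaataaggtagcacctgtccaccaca

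The deletion was visible at both RNA and chromatin. Gps2 RNA measured 17.5, 16.9, 17.7 and 16.1 CPM (counts scaled to library size) in the WT livers and 11.6, 9.66, 8.60 and 11.9 in the LKO livers, groups that did not overlap (log2 fold change -0.54 ± 0.11 SE, adjusted p = 0.0021, edgeR quasi-likelihood test). The GPS2 library of the LKO liver gave 52 peaks against 48968 in WT, 1 of them at an unmarked site. Unmarked sites summed to 124107 GPS2 tags in WT and 7291 in the LKO, from libraries of 15.5 M and 14.8 M tags, a WT to LKO ratio of 16.25 per total tags. The ratio was 23.86 at sites with H3K27ac and 25.48 at sites with H3K4me3. With 1 library per genotype these ratios have no replicate check.

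GPS2 was weaker at unmarked sites than at marked ones. The median was 12 tags in WT (from 5 to 489, with the middle 50% between 9 and 18), against 18 with H3K27ac and 17 with H3K4me3, and 30.1% of unmarked sites reached the median of all GPS2 peaks. In the LKO the median was 1 tag in every class, and 2994 unmarked sites (40.4%) had none, which with a floor of 3 counts allows up to 2.03 tags per 10000000 at each. In all, 6 unmarked sites held 10 or more LKO tags.

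The strongest members included repeats and single-copy sites. The site in a satellite repeat (GSAT_MM) nearest Rab10os, at -125810 bp from its start, held 489 WT tags and 3 LKO tags, and sites in ribosomal RNA repeats nearest Pex2 and Filip1l held 205 and 173 WT tags and 2 and 0 LKO tags. Single-copy sites followed nearest Greb1l (159 and 0 tags), Commd7 (151 and 3) and Ndrg1 (149 and 1), a stress- and differentiation-induced gene. The exact Poisson interval was 126 to 175 for the 149 tags nearest Ndrg1 and 0.0253 to 5.57 for its LKO tag, with error of counting and no other source included. The 20 members in satellite or ribosomal repeats made up 1.66% of all tags at unmarked sites, and without them the WT to LKO ratio was 16.1.

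At the satellite site WT and knockout libraries overlapped in each factor comparison except that of PPARα in the Gps2 LKO, where the LKO libraries (236 to 359) lay below the pooled WT (434). Per 10000000 tags, GPS2 there measured 301, 405 and 292 in Ncor WT and 270, 330 and 259 in Ncor LKO, GPS2 in the Ppara line 350, 313 and 121 in WT and 358, 337 and 322 in the KO, where 1 WT library is low, and NCOR and PPARα in their own tables lay between 236 and 434 in every library, and no comparison of it passed the test. Reads from a repeat cannot be assigned to 1 copy with certainty. PPARα peaks called in Ppara KO livers, which lack the protein, bear on the same sites: there were 131 and 92 such peaks, 30 and 29 of them at unmarked sites, and of the 20 unmarked sites under a peak of both KO livers 15 lay in a repeat. In the 2 Ppara WT livers beside them 721 and 956 unmarked sites had a PPARα peak.

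Unmarked sites lay further from transcription start sites than marked ones did. Of them 3854 (52.1%, exact 95% binomial interval 50.9 to 53.2%) were intergenic and 3153 (42.6%) intronic, against 40.6% and 52.7% with H3K27ac, and 113 (1.53%) lay within 1000 bp of a transcription start site, against 1.70% with H3K27ac and 55.9% with H3K4me3. The median distance to the nearest start site was 36720 bp, against 21630 bp with H3K27ac and 620 bp with H3K4me3, and 3015 sites (40.7%) were over 50000 bp away, against 25.7% with H3K27ac. A repeat covered the centre of 1679 sites (22.7%), of 20.3% with H3K27ac and of 6.04% with H3K4me3, with LTR elements at 8.90%, 6.86% and 1.90%. The nearest mark peak was at a median distance of 7412 bp, and 1718 sites (23.2%) had one within 1000 bp.

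The genes nearest to unmarked sites were expressed at low levels. For 33.7% of unmarked sites the nearest gene was not listed in the RNA table, against 19.7% with H3K27ac and 8.53% with H3K4me3, and where it was, its median level in WT was 2.72 RPKM (reads scaled to gene length and library size), against 7.38 and 8.03. RNA polymerase II, measured in 1 WT and 1 LKO library of the Gps2 line, had a peak at 80 (1.08%) and 96 (1.30%) of the unmarked sites. The 130 table peaks of polymerase II at unmarked sites summed to 1878 tags per 10000000 in WT (exact Poisson interval 1800 to 1958) and 2052 in the LKO (1972 to 2136), intervals that cover counting error only. Of the tags at all table peaks these were 0.12% in WT and 0.124% in the LKO.

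Most unmarked sites were shared with NCOR and PPARα. A site counted as bound if a peak of at least 2 of 6 WT libraries covered it, with 3 near-identical PPARα libraries counted as 1. NCOR was present at 6596 unmarked sites (89.1%), PPARα at 5579 (75.4%) and GPS2 of the other WT livers at 3197 (43.2%). The same shares with H3K27ac were 92.6%, 85.4% and 65.8%, and with H3K4me3 78.0%, 78.2% and 65.3%. At unmarked sites 2969 (40.1%) had all 3 factors, 2360 (31.9%) PPARα and NCOR without GPS2 of another line, 1109 (15%) NCOR alone and 532 (7.19%) none, whereas all 3 factors were at 62.1% of the sites with H3K27ac. Libraries differed in depth of peak calling: among single WT libraries PPARα covered from 9.74% to 76.3% of the unmarked sites, NCOR from 45.2% to 85.4% and GPS2 from 11.3% to 66.4%.

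The shares moved with the number of GPS2 tags. PPARα went from 51.6% of the 2086 unmarked sites with 5 to 9 tags to 98.2% of the 709 with over 30, NCOR from 76.1% to 98.2%, and GPS2 of other livers from 10.8% to 98.2%. At unmarked sites with at least the median tags of all GPS2 peaks, PPARα was at 96.1% and NCOR at 98.5%, beside 95.9% and 96.9% of the sites with H3K27ac, and 88.0% and 85.3% of those with H3K4me3, of the same minimum. Over each whole class the PPARα shares were 75.4% and 85.4%. PPARα was at 72.9 to 80.3% of the sites in each class of repeats and 74.7% outside repeats, NCOR at 72.9% of the 70 sites in satellite and other repeats, at 88.0 to 92.3% in the other repeat classes and at 89.3% outside, and GPS2 of other livers at 41.0 to 52.1% and 43.3%. At intergenic and intronic sites PPARα was at 77.3% and 73.6%.

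**Figure D1:**
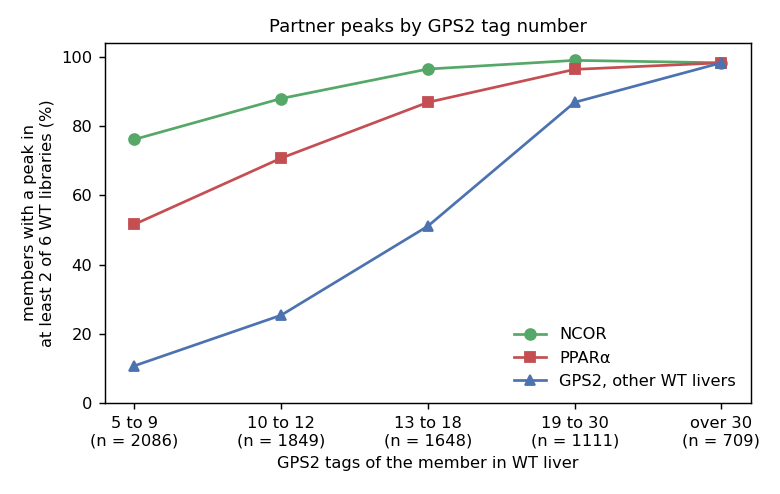
Share of unmarked GPS2 sites (percent, vertical axis) under a peak of NCOR, PPARα or GPS2 of other livers in at least 2 of 6 WT libraries, by the number of GPS2 tags in the WT liver in 5 bins (horizontal axis). PPARα and GPS2 go up from bin to bin, NCOR goes up to 98.9% at 19 to 30 tags, and all 3 are at 98.2% at sites with over 30 tags.

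Sequence features set unmarked sites apart from promoters more than from sites with H3K27ac. In windows of 200 bp around the centre, searched on both strands, a DR1 with at most 2 mismatches was in 12.8% of unmarked sites (12.1 to 13.6%), 13.7% with H3K27ac, 6.66% with H3K4me3 and 10.5% of all GPS2 peaks. The single copy AGGTCA, part of the DR1, was in 37.7%, 34.9%, 19% and 28.4%. The extended site with at most 1 mismatch, which also contains AGGTCA, was in 10.3% (9.65 to 11.1%), 7.87%, 4.17% and 6.64%, so its share was highest at unmarked sites and its interval did not overlap that with H3K27ac. The sequences printed for 1700012I11Rik and Glipr2 hold it without a mismatch.

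The motif of C/EBP (TTGC, any base, CAA), a hepatocyte factor, was in 8.81% of unmarked sites, 7.15% with H3K27ac and 6.09% of all GPS2 peaks, and that of FOXA (TGTTTAC) in 7.78%, 7.32% and 6.04%. AP-1 (TGANTCA) was in 8.97%, 9.15% and 7.26%. The promoter motifs of ETS factors (CCGGAAG, 1.00%) and the GC box (GGGCG followed by GGG, 0.908%) were rare, against 8.99% and 15.6% with H3K4me3 and 4.54% and 7.26% of all. The motif of CTCF, the insulator protein (CCA, 2 bases of any kind, AG, 2 of any kind, GGC), was in 2.10% of unmarked sites, in 1.41% with H3K27ac and in 1.83% of all. The median GC content was 47% at unmarked sites, 48% with H3K27ac and 58% with H3K4me3.

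Within the unmarked sites, motifs went with the factor bound. A DR1 was in 14.9% of sites with PPARα (13.9 to 15.8%) and in 6.67% of those without (5.57 to 7.92%), while CTCF was in 1.60% (1.29 to 1.96%) and 3.64% (2.83 to 4.61%). The extended site was in 10.7% and 9.32%, intervals that overlap, but in 15.1% (12.6 to 18%) of sites with over 30 GPS2 tags and 8.33% (7.17 to 9.60%) of sites with 5 to 9. At sites under H3K27ac in both Gps2 LKO livers the shares were 11.4% for DR1, 10.2% for the extended site and 1.14% for CTCF. A match describes letters in a window and is not a measure of binding.

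**Figure D2:**
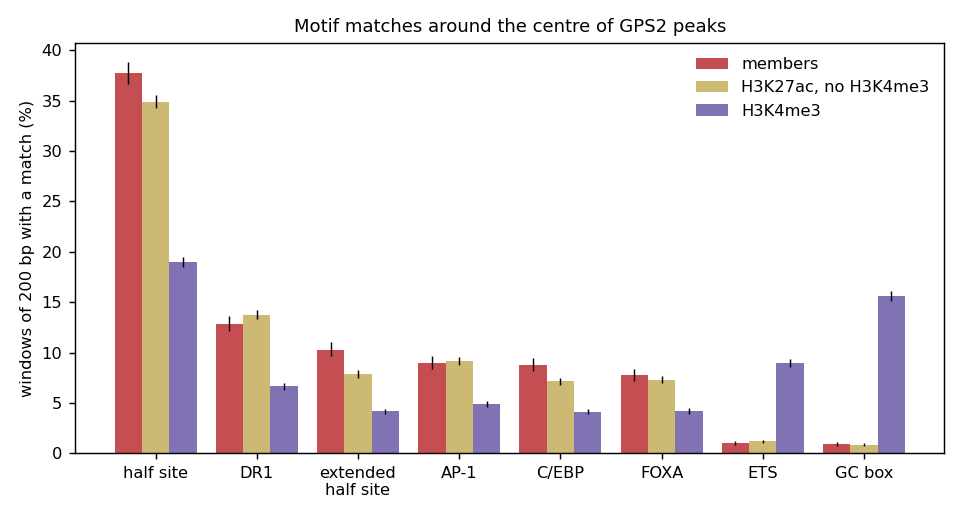
Share of 200 bp windows with each of 8 motifs (percent, vertical axis, bars with exact 95% binomial intervals) at unmarked GPS2 sites (members), sites with H3K27ac and no H3K4me3, and sites with H3K4me3. The single AGGTCA site and DR1 are at similar shares in the first pair of classes, and the GC box (15.6%) and ETS motif (8.99%) stand out at sites with H3K4me3.

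Some unmarked sites carried H3K27ac in LKO livers. In the Gps2 LKO, 1858 (25.1%) and 1676 (22.6%) lay under an H3K27ac peak, 1230 (16.6%) in both livers and 2304 (31.1%) in at least 1. By the rule none did in WT, so the share describes the sites and is no test. Of all GPS2 peaks without H3K27ac in WT livers, 1292 of 7671 (16.8%) had it in both LKO livers. With the genotypes exchanged, 618 of the 6640 without it in LKO livers (9.31%) had it in both WT livers. These counts reuse the H3K27ac peaks of the rule, and the GPS2 peaks were called in WT. The LKO libraries also had more H3K27ac peaks (51462 and 51281, against 50269 and 49995 in WT). Both shares are therefore descriptions, and neither is a background for the other. The share of unmarked sites with H3K27ac in both LKO livers went down with distance to a mark peak in WT. It was 35.4% of sites within 1 kb of a mark peak, 14.5% at 1 to 10 kb, 8.93% at 10 to 100 kb and 5.56% beyond. Of the 5685 sites with no mark within 1000 bp, 622 (10.9%) had H3K27ac in both LKO livers.

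In the Ncor line, whose livers the rule did not use, H3K27ac peaks covered 7.79%, 8.23% and 8.08% of the unmarked sites in WT and 12.4%, 13.5% and 13.7% in the LKO, so that every LKO liver was above every WT liver. With 3 against 3 livers, an exact permutation test cannot go below p = 0.1. In the Smrt line the shares were 17.4%, 16.7% and 16.5% in WT and 18.2%, 20.2% and 18.8% in the LKO, again without overlap but closer together. Sites with a peak in at least 2 of 3 livers numbered 884 (11.9%) in Ncor LKO against 512 (6.92%) in Ncor WT, and 1352 (18.3%) in Smrt LKO against 1196 (16.2%) in Smrt WT. A peak in all 3 LKO and no WT liver was found at 87 unmarked sites in the Ncor line, with 10 the other way, and at 41 and 10 in the Smrt line. These are 1.18% and 0.135% of unmarked sites in the Ncor line and 0.554% and 0.135% in the Smrt line, beside 0.645% and 0.214%, and 0.165% and 0.1%, of all GPS2 peaks. Sites with H3K27ac and no H3K4me3 were at 1.05% and 0.393%, and 0.177% and 0.147%. A site with a WT peak cannot enter the first count of a pair. At least 1 Ncor WT liver had a peak at 14.0% of unmarked sites and 83.1% of all GPS2 peaks. For Smrt WT livers these were 25.3% and 83.8%. The shares therefore do not set unmarked sites against all GPS2 peaks.

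The WT livers of the Ncor and Smrt lines did not overlap in these shares (7.79 to 8.23% and 16.5 to 17.4%), and the animals differed in sex. H3K27ac tags at chromosome Y peaks were 0 in all 6 Smrt-line libraries and 1368 to 1518 in the Ncor line, and the reverse held for tags at Xist (918 to 1048 against 12 to 22), so the Smrt-line livers read as female and the Ncor-line livers, like those of the Gps2 line, as male. Line and sex cannot be told apart in a comparison of the Ncor and Smrt lines, whereas LKO and WT of each line are of 1 sex. In RNA of the Gps2 line the Y-linked Eif2s3y was at 55.2 to 68.5 CPM in all 8 livers.

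**Figure D3:**
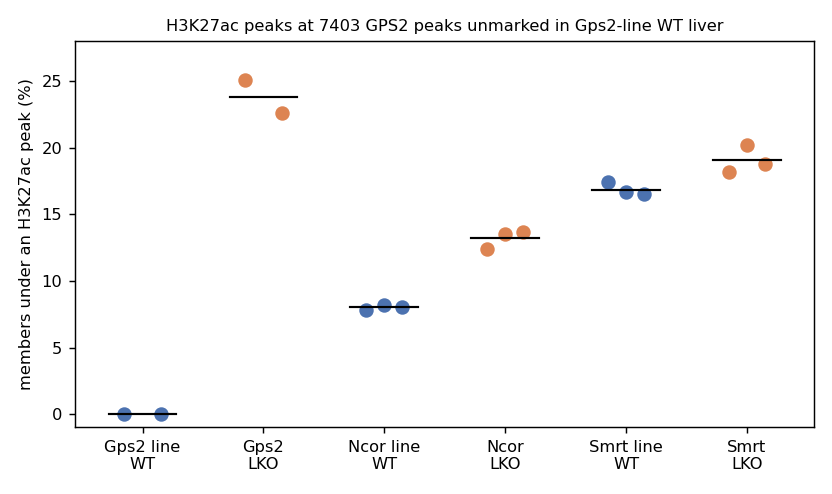
Share of the 7403 unmarked GPS2 sites (members) under an H3K27ac peak (percent, vertical axis) in each of the 16 livers, by line and genotype, with 1 point per liver and a bar at the group mean. The 2 WT livers of the Gps2 line are at 0 by the rule, the Ncor LKO livers (12.4 to 13.7%) lie above Ncor WT (7.79 to 8.23%), and all 6 Smrt-line livers lie between 16.5 and 20.2%.

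The sites marked in different lines coincided in part. Of the 1230 sites under H3K27ac of both Gps2 LKO livers, 29.4% were marked in at least 2 Ncor LKO livers and 16.4% in Ncor WT, and 39.8% in Smrt LKO and 37.7% in Smrt WT. Of the 5099 sites without a peak in either Gps2 LKO liver these shares were 6.47%, 3.61%, 11.2% and 9.22%. WT livers of another line marked 520 of the 1230 sites (42.3%), against 10.8% of the 5099. Of the 87 sites marked in all Ncor LKO and no Ncor WT livers, 43 (49.4%) were under H3K27ac of both Gps2 LKO livers and 1 was among the 41 such Smrt sites, of which 8 (19.5%) were under H3K27ac of both Gps2 LKO livers.

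At 3660 unmarked sites (49.4%) no H3K27ac peak was called in any of the 16 livers. These had a median of 11 GPS2 tags against 13 at the other unmarked sites, PPARα at 72.6% against 78.1%, NCOR at 86.1% against 92.0%, and a median distance to a mark peak of 13360 bp against 3147 bp. CTCF matched 2.91% of them (2.39 to 3.51%) and 1.14% of the sites under H3K27ac of both Gps2 LKO livers (0.624 to 1.90%).

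Tag counts were compared at the merged peaks of each deposited table, where a peak of H3K27ac had to be called in at least 1 library, so unmarked sites with such a peak (2901 of 7403 in the table of the Ncor and Smrt lines, at 2767 table peaks) are not all unmarked sites and lean to those where some liver had the mark. In the Ncor LKO, 230 of these 2767 peaks rose and 17 fell by edgeR at an adjusted p under 0.05 (8.31% and 0.614%), where 2.32% and 0.801% of all 68817 table peaks did. At table peaks over GPS2 sites with H3K27ac, 913 of 14120 rose and 255 fell (6.47% and 1.81%), so rises were frequent there too. The median log2 fold change was 0.22 at unmarked sites and 0.22 above the median of the table, and every LKO library was above every WT library at 689 peaks (24.9%) and below at 137 (4.95%), against 10.6% and 9.04% over the table and 20.2% and 9.87% at GPS2 sites with H3K27ac. The count depends on single libraries: 107 rose without WT liver 1, 47 without WT liver 2 and 73 without WT liver 3, beside 1.01%, 0.43% and 0.647% of the table, while 7 fell without LKO liver 3, 11 without WT liver 1 and 6 without WT liver 2 or 3. Among the 2767, 367 also cover another GPS2 peak, and at the 2400 that do not, 163 rose and 14 fell (6.79% and 0.583%).

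In the Smrt LKO, 0 of 2765 such peaks rose or fell (0.0% of the 68800 tested). Of these peaks 273 had an unadjusted p under 0.05, beside 4079 of the 68800. DESeq2 called 6 higher and 1 lower (0.217% and 0.0362%, beside 0.0683% and 0.0305% of the table). Their median log2 fold change was 0.06, and every LKO library was above every WT library at 243 peaks (8.78%) and below at 113 (4.08%), against 5.8% and 6.08% over the table. The difference of the Ncor and Smrt effects, tested as an interaction in edgeR, was above 0 at 30 and below 0 at 4 of the 2767 (1.08% and 0.145%), against 0.33% and 0.0959% of the table. The first count was 7, 16 and 18 without Ncor WT liver 2, 3 or 1, 12 without Ncor LKO liver 3, 10 without Smrt LKO liver 1 or Smrt WT liver 1, 8 without Smrt LKO liver 3 and 51 without Smrt WT liver 3. No share of the table is given for these counts, so they show only how the number moves.

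The 3 largest rises by the rule for named sites in the Ncor LKO were nearest Cdx4, Rfx4 and Taar8a. Nearest Cdx4, an intestinal homeobox gene, the peak (chrX:100509073-100510339, mm9) held 0.530, 1.2 and 1.57 tags per 10000000 in WT and 21.3, 12.0 and 6.51 in the LKO (log2 fold change 3.52 ± 0.53 SE, adjusted p = 0.00874, edgeR). Smrt-line livers held 17.8, 22.3 and 5.43 in WT and 12.2, 18.9 and 22.8 in the LKO, where the genotypes overlap. An intron-annotated site in a SINE nearest Rfx4, at -34015 bp, went from 7.15, 4.79 and 4.25 to 53.8, 26.1 and 38.2 (2.87 ± 0.31, adjusted p = 0.00277, edgeR), and a site nearest Taar8a, an olfactory trace amine receptor, from 2.91, 4.55 and 4.92 to 37.5, 12.7 and 12.1 (2.31 ± 0.47, adjusted p = 0.0273, edgeR). The genotypes did not overlap at either. The Smrt-line livers held 7.43 to 24.8 tags nearest Rfx4 and 6.28 to 39.7 nearest Taar8a. The difference between the lines was 3.29 nearest Cdx4, 1.99 nearest Rfx4 and 1.92 nearest Taar8a, with adjusted p = 0.094, 0.0849 and 0.355 (edgeR interaction), so none of the 3 passed.

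The peak in the major urinary protein cluster nearest Mup13 (chr4:60821483-60829217) was the one named site where the lines differed by test. It measured 74.2, 47.7 and 29.5 in Ncor WT and 251, 206 and 250 in Ncor LKO (2.23 ± 0.26, adjusted p = 0.00394, edgeR), but 177, 129 and 122 in Smrt WT and 101, 99.5 and 117 in Smrt LKO. In the Ncor line every LKO liver was above WT and in the Smrt line every LKO liver was below, and the difference of the effects was 2.66 ± 0.34 (adjusted p = 0.00976, edgeR interaction). Mup genes are near-identical copies, so reads may be assigned to the wrong copy. The GPS2 site lies 66000 bp from the Mup13 start. RNA was measured in the Gps2 line only, where Mup13 fell in the LKO from 6.21, 5.90, 5.87 and 5.63 CPM to 0.822, 0.398, 0.407 and 0.152 (-3.53 ± 0.24, adjusted p = 9.42e-08, edgeR). A link between the site and this RNA was not tested.

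The falls in the Ncor LKO were fewer than the rises. H3K27ac nearest 4930448F12Rik went from 43.2, 58.5 and 62.0 to 10.2, 18.8 and 12.6 tags per 10000000 (-1.98 ± 0.24, adjusted p = 0.00422, edgeR), and nearest Spsb4, in an intron 40343 bp from the start, from 15.6, 16.3 and 19.7 to 4.07, 6.10 and 7.37 (-1.55 ± 0.24, adjusted p = 0.0101). The groups did not overlap, and the second peak shares 50 bp with its GPS2 site. All 6 Smrt-line livers held 1.02 to 2.28 at the first and 8.35 to 18.7 at the second. A peak nearest B230303A05Rik fell by 2.72 on the log2 scale, but shares 28 bp with the GPS2 site, and one nearest Gm20268 fell by 1.54.

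**Figure D4:**
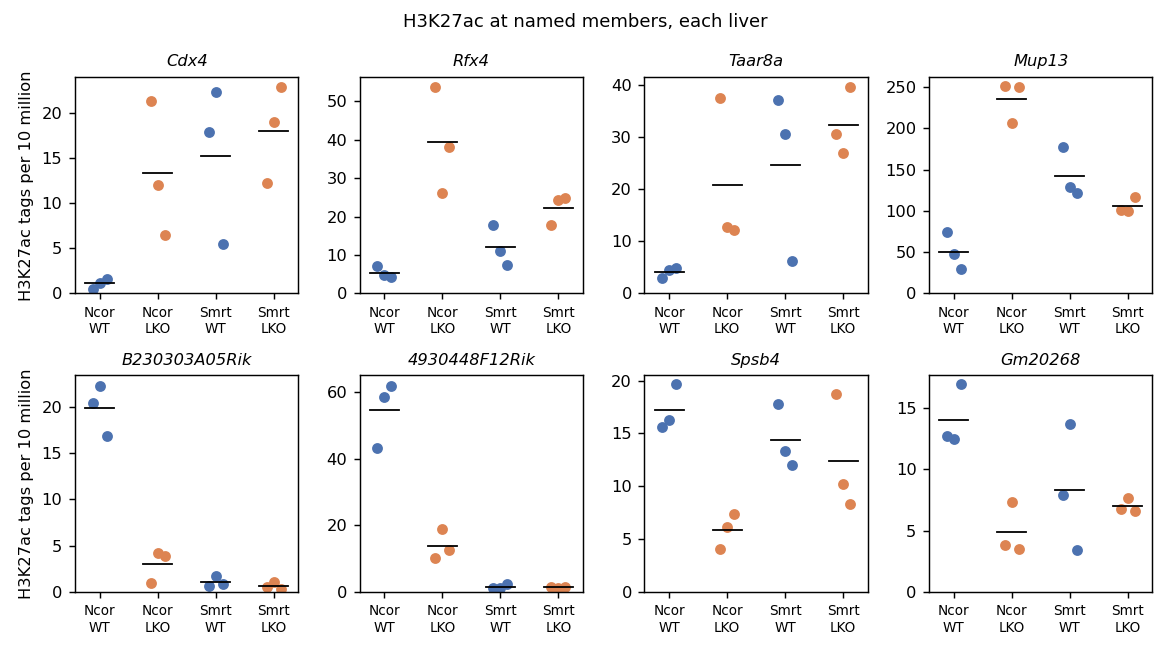
H3K27ac tags per 10000000 (linear vertical axes that differ between panels) in each liver of the Ncor and Smrt lines at 8 named unmarked sites, with 1 point per liver and a bar at the group mean. Ncor LKO and Ncor WT livers do not overlap in any panel, and in the Smrt line the genotypes are apart nearest Rfx4 and Mup13 and overlap in the other 6 panels.

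In the Gps2 line itself H3K27ac at unmarked sites can only be described, since the rule took sites without the mark in WT. The choice of sites favours higher values in the LKO, so nothing is read from the counts of 210 higher and 1 lower by edgeR at 3636 table peaks (5.78% and 0.0275%, with 1.07% and 0.194% of all 85709). The median log2 fold change was 0.36 against 0.05. Without WT liver 1 or 2 the higher peaks numbered 44 or 60, and without LKO liver 1 or 2 they numbered 444 or 412. The sites with the most tags in the LKO lay within wide merged peaks over genes of liver metabolism: Adk, adenosine kinase (5398 and 5065 in WT, 5665 and 5527 in LKO), Slc25a15, the mitochondrial ornithine carrier (2035 and 1760, 1961 and 1913), Cbs, cystathionine beta-synthase (1249 and 1056, 1267 and 1032), and Cyp2e1, the ethanol-inducible cytochrome (1246 and 1214, 1765 and 1589). Of these the WT and LKO livers overlapped at Slc25a15 and Cbs and not at Adk and Cyp2e1. Such merged peaks cover other GPS2 peaks as well, so their values are not those of the unmarked site alone.

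The largest differences, chosen after their values were seen, are described at 4 peaks. Nearest C230079O03Rik H3K27ac measured 9.59 and 6.47 in WT and 42.9 and 70.6 in the LKO, nearest Corin, the natriuretic peptide convertase, 4.40 and 3.74 and then 20.7 and 29.2, and nearest Gm38404 7.99 and 11.2 and then 46.7 and 55.4. At Cyp2a4, a steroid hydroxylase whose near-identical paralogs make read assignment uncertain, it measured 4.0 and 5.11 in WT and 15.8 and 26.2 in the LKO. The genotypes did not overlap at any of the 4. Cyp2a4 RNA rose from 2.58, 2.79, 3.09 and 5.56 CPM to 1180, 1010, 1160 and 1130 (8.51 ± 0.17, adjusted p = 3.34e-13, edgeR), and Corin RNA was 0, 0.127, 0 and 0.203 CPM in WT and 1.16, 1.19, 0.987 and 1.67 in the LKO, 2 WT libraries being at 0.

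Between the Ncor and Smrt lines, which share a table, levels at some of these sites did not overlap. The merged peak at Cyp2a4 in that table (chr7:27085430-27103742) is wider than that of the Gps2 line (chr7:27099600-27101415), so tags at Cyp2a4 cannot be compared between the tables. At Cyp2a4 all 6 Smrt-line livers held 1010 to 1320 tags per 10000000 of H3K27ac, while the Ncor line held 29.7, 33.3 and 390 in WT and 116, 27.1 and 35.1 in the LKO, with 1 WT liver far above the rest. At Corin the Smrt-line livers held 25.7 to 49.8 and the Ncor-line livers 3.69 to 8.37, which do not overlap. Smrt-line livers read as female, as given above, and the part of sex in these levels was not tested.

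The medians of GPS2 binding were below WT in the Ncor LKO and the Ppara KO, at unmarked sites and over the whole tables. In the Ncor LKO the median log2 fold change per total tags was -1.20 at 4728 table peaks, -1.12 over the table, and 5 fell and 0 rose by edgeR (0.106% and 0%, against 0.0338% and 0.0% of 56278), with 1690 at an unadjusted p under 0.05. That unadjusted threshold was passed by 19323 of the 56278, and by 8258 of 16510 peaks over GPS2 sites with H3K27ac. The share of tags in peaks was 8.23%, 7.82% and 3.07% in WT and 2.85%, 3.15% and 2.45% in the LKO, so WT library 3 stands apart: without it 2968 fell (62.8%, near the 59.1% of the whole table) and 1 rose, and without any other library 0 fell. Scaled by TMM, which sets the average peak to no change, the median was -0.11 at unmarked sites and -0.04 over the table, with 30 lower and 20 higher (0.635% and 0.423%, beside 0.458% and 1.78% of the table), and DESeq2 called 5 lower and 7 higher, beside 66 and 394 over the table. The LKO libraries were all below WT at 1340 peaks (28.3%) and all above at 13 (0.275%), against 26.6% and 1.28% over the table. They were all below WT at 32.0% of the peaks over GPS2 sites with H3K27ac and 33.7% with H3K4me3.

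In the Ppara KO the median was -1.15 at 2489 table peaks and -0.93 over the table, and 20 fell and 0 rose (0.804% and 0%, against 0.273% and 0.0% of 27842), with 890 at an unadjusted p under 0.05 and 2 higher and 2 lower by DESeq2. The unadjusted and DESeq2 counts are given without a share of the table, so they do not set unmarked sites against other peaks. Tags in peaks were 2.55%, 2.42% and 4.39% in WT and 2.06%, 1.87% and 1.07% in the KO. By TMM the medians were -0.20 and 0.01, with 9 lower and 4 higher (0.362% and 0.161%, beside 0.097% and 0.0539% of the table). The KO libraries were all below WT at 947 peaks (38%) and all above at 4 (0.161%), against 31.3% and 0.14% over the table. They were all below WT at 36.7% of the peaks over GPS2 sites with H3K27ac and 29.1% with H3K4me3. Without any 1 library other than WT library 2, from 2 to 6 fell.

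The site in intron 4 of Cpne5, a calcium-dependent phospholipid-binding protein, fell in both. GPS2 there (chr17:29347060-29347323 in the table of the Ncor line) measured 105, 64.0 and 22.0 tags per 10000000 in Ncor WT and 7.89, 10.6 and 5.19 in the LKO (-3.00 ± 0.66, adjusted p = 0.032, edgeR), and 42.3, 40.3 and 68.5 in Ppara WT and 5.10, 12.9 and 4.33 in the KO (-2.75 ± 0.57, adjusted p = 0.00361, edgeR). NCOR fell there in the Ppara KO from 206, 206 and 203 to 42.5, 61.9 and 47.0 (-2.01 ± 0.18, adjusted p = 4.35e-24), and all these groups were apart. PPARα in the Gps2 LKO was 360, 327 and 224 beside 320 in the pooled WT, and NCOR in the Gps2 LKO overlapped its WT (44.1 to 83.7 against 42.3 to 52.6). H3K27ac was low throughout, at 4.40 and 5.11 in Gps2 WT and 11.7 and 7.47 in the LKO.

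Other falls of GPS2 in the Ncor LKO were 103475 bp from Akr1d1, the bile acid reductase, from 84.6, 42.4 and 19.8 to 7.89, 2.36 and 6.75 (-3.08 ± 0.67, adjusted p = 0.032, edgeR), and in 1700100L14Rik, from 85.1, 42.4 and 18.2 to 2.46, 8.86 and 6.23 (-3.05 ± 0.67, adjusted p = 0.032). In the Ppara KO GPS2 fell at a site in an LTR nearest Pik3r1, the regulatory subunit of PI3 kinase, at -246204 bp, from 29.1, 22.8 and 61.6 to 8.74, 6.05 and 5.05 (-2.50 ± 0.59, adjusted p = 0.0173), and in Cyp4b1-ps2, a cytochrome pseudogene, from 36.1, 34.5 and 47.7 to 9.47, 12.1 and 2.16 (-2.31 ± 0.58, adjusted p = 0.0346). The groups were apart at all 4. At Cyp4b1-ps2 H3K27ac rose in the Ncor LKO, from 31.8, 37.2 and 36.2 to a range of 100 to 131 (1.73 ± 0.15, adjusted p = 0.00152, edgeR). The rule for named sites does not name this peak for H3K27ac, and H3K27ac at the other sites of this paragraph is not reported here.

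NCOR fell at more unmarked sites in the Ppara KO than it rose. In the Ppara KO 625 of 6970 table peaks fell and 11 rose by edgeR (8.97% and 0.158%), where 2.51% and 0.136% of all 115042 did, with a median log2 fold change of -0.46 against -0.32 over the table. By TMM 287 fell and 50 rose (4.12% and 0.717%, beside 1.05% and 0.759% of the table) and the medians were -0.16 and -0.02. By DESeq2 111 fell (1.59%, beside 0.393% of the table). Without KO library 1 or 3, 415 or 324 fell, and without WT library 1 or 3, 338 or 262, while 4 to 7 rose without KO library 1 or 2 or WT library 2 or 3. The KO libraries were all below WT at 2307 peaks (33.1%) and all above at 87 (1.25%), against 18.8% and 1.97% over the table. The largest fall by the rule was nearest Palb2, a DNA repair gene, where NCOR went from 126, 108 and 142 to 18, 13.5 and 8.54 tags per 10000000 (-3.24 ± 0.26, adjusted p = 8.12e-32), at a peak that shares 119 bp with the GPS2 site. GPS2 at the Palb2 site, outside the rule for named sites and chosen after its values were seen, was 23.6, 26.0 and 50.8 in Ppara WT and 2.18, 0 and 0.721 in the KO (adjusted p = 1.4e-06, edgeR). NCOR fell by 3.18 nearest Trib2, at -341355 bp, and by 3.03 nearest Eln, elastin, at -68953 bp. It rose at 2 sites nearest Slc35b3, from 8.13, 9.46 and 7.58 to 51.5, 45.8 and 46.3 (2.50 ± 0.36, adjusted p = 2.6e-09) and from 17.1, 12.9 and 12.6 to 47.4, 45.1 and 47.0 (1.70 ± 0.33, adjusted p = 4.57e-05), and the groups were apart at each of these.

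In the Gps2 LKO NCOR rose at 1 and fell at 0 of 6487 peaks (0.0154% and 0%, against 0.0124% and 0.00495% of 80813), with 256 at an unadjusted p under 0.05. The unadjusted count is given without a share of the table, so it does not set unmarked sites against other peaks. DESeq2 called 14 higher and 9 lower, beside 43 and 33 over the table. Without LKO library 3, 9 rose and 4 fell, without LKO library 1, 2 rose, and without LKO library 2 or any WT library 0 rose, with 1 lower without WT library 3. The LKO libraries were all above WT at 217 peaks (3.35%) and all below at 131 (2.02%), against 2.67% and 3.01% over the table. The median log2 fold change was 0.10 at unmarked sites and -0.03 over the table. Per library the median NCOR value at unmarked sites was 12.2, 12.0 and 7.54 tags per 10000000 in WT and 11.7, 14.9 and 7.59 in the LKO, which overlap.

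PPARα at most unmarked sites measured higher in the Gps2 LKO libraries than in the pooled WT when scaled to total tags, and the number of calls depends on the scaling and the tool. By edgeR 2981 of 6445 table peaks were called higher and 9 lower (46.3% and 0.14%), where 21.5% and 0.147% of all 102519 did, and the median log2 fold change was 0.79 against 0.62. The 3 WT libraries agreed within sampling noise and count as 1, so the spread comes from the LKO libraries alone, and the test assumes that the 1 WT sample varies like them. Without LKO library 3, 1643 were called higher and 3 lower (9.88% and 0.0283% of the table), and without LKO library 1, 14 lower. Tags in peaks made up 20.5% of the pooled WT and 32.1%, 30.3% and 28.9% of the LKO libraries. By TMM 110 were called higher and 36 lower (1.71% and 0.559%, beside 0.539% and 0.434% of the table), the medians were 0.18 and 0.02, and DESeq2 called 1 in each direction, beside 15 higher and 7 lower over the table. The LKO libraries were all above the pooled WT at 5344 peaks (82.9%) and all below at 138 (2.14%), against 67.3% and 4.06% over the table. At GPS2 sites with H3K27ac these shares were 84.3% and 1.53%, so the higher values were not particular to unmarked sites. In the Ncor LKO 11 rose and 3 fell of 6438 (0.171% and 0.0466%, against 0.151% and 0.0453% of 86168), the medians were 0.22 and 0.10, and without WT library 3, with 8.96% of its tags in peaks against 18.6 and 19.3%, 50 rose and 38 fell (0.777% and 0.59%, beside 0.344% and 0.626% of the table). Without WT library 2 or LKO library 3, 1 rose, and without LKO library 1 or 2, 4 rose, with 0 or 1 lower without any library other than WT library 3. In this comparison the LKO libraries were all above WT at 642 peaks (9.97%) and all below at 93 (1.44%), against 5.99% and 2.01% over the table.

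Named sites of PPARα in the Gps2 LKO are given by their values, with no p-value, since WT is 1 sample. Nearest D10Jhu81e PPARα measured 8.06 tags per 10000000 in the pooled WT and 29.9, 36.9 and 66.3 in the LKO, and nearest Sall1, a developmental zinc finger gene, 8.06 and then 56.3, 37.9 and 40.5. At the sites named for H3K27ac it was 11.0 in WT and 21.8, 43.6 and 22.9 in the LKO at Cyp2a4, and 19 in WT and 44.8, 40.7 and 46.3 at Cdx4. All LKO libraries lay above the WT sample at these 4 sites. The log2 fold changes of the sites named for lower values were -0.97 nearest Kcna4, -0.93 at a satellite nearest Mir101c and -0.90 nearest Brinp3.

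In the Ncor LKO PPARα rose nearest Tab2, a kinase adaptor of the NF-κB pathway, at -229644 bp, from 9.87, 3.74 and 2.38 to 16, 35.7 and 34.7 (2.46 ± 0.56, adjusted p = 0.0155, edgeR), and nearest Mad1l1, a spindle checkpoint gene, 130151 bp from its start, from 22.8, 23.0 and 6.18 to 64.5, 71.0 and 96.7 (2.17 ± 0.51, adjusted p = 0.0205). Both sites are among those where H3K27ac rose in the same LKO, from 7.68, 8.63 and 6.71 to 22.4, 42.7 and 18.4 nearest Tab2 (1.85 ± 0.32, adjusted p = 0.0146) and from 4.50, 1.92 and 1.79 to 11.5, 8.30 and 6.07 nearest Mad1l1 (1.68 ± 0.39, adjusted p = 0.0476). No group overlapped at either site. The rule for named sites names neither of them for H3K27ac.

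**Figure D5:**
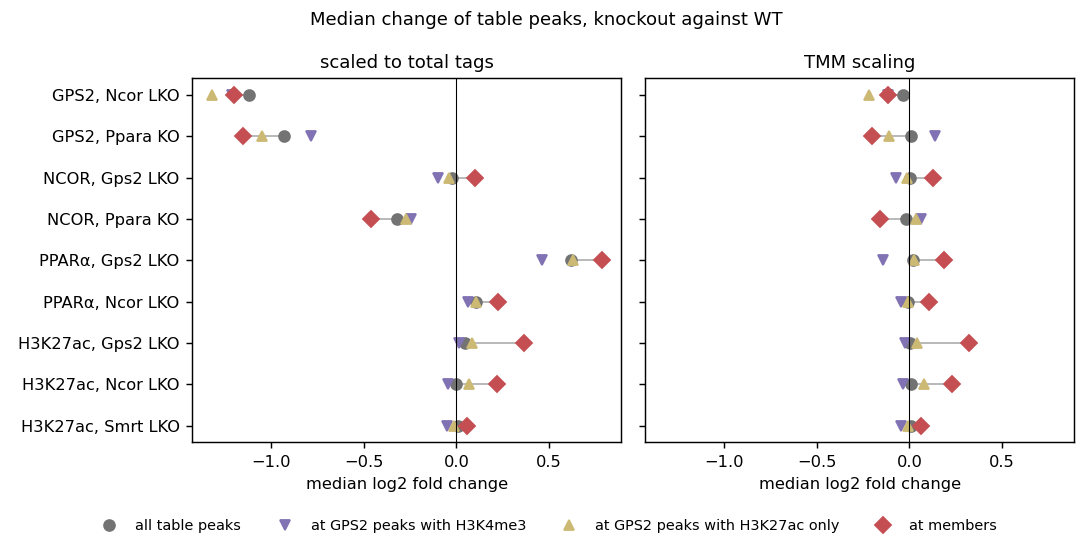
Median log2 fold change (horizontal axis), LKO or KO against WT, of table peaks at unmarked GPS2 sites (members), at GPS2 peaks with H3K27ac only and with H3K4me3, and of all table peaks, for each antibody and line, scaled to total tags in the left panel and by TMM in the right panel. The medians at unmarked sites lie further from 0 than those of all table peaks, which for H3K27ac in the Gps2 line the choice of sites without the mark in WT favours. This is not particular to unmarked sites. For GPS2 in the Ncor LKO the medians by total tags are -1.32 with H3K27ac only and -1.21 with H3K4me3, against -1.20 at unmarked sites. In the Gps2 LKO, with WT as 1 sample, PPARα is at 0.79 against 0.62 by total tags and at 0.18 against 0.02 by TMM.

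Genes nearest to unmarked sites rose and fell in the Gps2 LKO at shares near those of all genes. Of the 2469 genes nearest to an unmarked site and tested in the Gps2 LKO, 578 rose (23.4%) and 624 fell (25.3%), where 23.4% and 21.4% of all 12220 genes did (edgeR, adjusted p under 0.05). Within 20000 bp 286 rose and 264 fell of 1147. Of the 648 genes nearest to sites under H3K27ac of both LKO livers 173 rose (26.7%) and 163 fell (25.2%). Scaling to total counts moved the median of all genes from 0.03 to -0.15 and gave 354 higher and 1013 lower near unmarked sites (14.3% and 41.0%), beside 12.8% and 37.9% of all genes. Genes nearest to an unmarked site and to no other GPS2 peak, a split added after the data were seen, numbered 1192. The filter for low counts left 229 of them tested, of which 82 rose (35.8%) and 20 fell (8.73%), with 24.0% and 15.7% by total counts. With every gene of at least 1 count kept, 411 were tested. Of these 23.4% rose and 6.08% fell, beside 20.3% and 18.4% of all genes.

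Of 136 GPS2 peaks within 20000 bp of 35 PPARα target genes of fatty acid oxidation, 18 were unmarked (13.2%), at 11 genes, and 8 of these were under H3K27ac of both Gps2 LKO livers. RNA of 19 of the 35 genes rose and that of 5 fell, where 23.4% and 21.4% of all 12220 genes did. The median log2 fold change was 0.24 beside 0.03 over all genes. The leading site lies at -5355 bp from Acot4, a peroxisomal acyl-CoA thioesterase, with 71 GPS2 tags in WT and 1 in the LKO. It is at the edge of the rule, 37 bp from a mark peak of the WT livers. H3K27ac there measured 48.0 and 56.9 in Gps2 WT and 99.3 and 131 in the LKO, and Acot4 RNA rose from 13.5, 15, 13.8 and 16.9 CPM to 28.1, 39.3, 32.1 and 26.1 (1.27 ± 0.11, adjusted p = 1.59e-06, edgeR). In the list RNA of Cyp4a14 rose by 4.85 and that of Fgf21, the fasting hormone, by 4.30 on the log2 scale, while Pex11a fell by 0.63.

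Of 128 GPS2 peaks near 26 genes of lipogenesis and cholesterol synthesis, 6 were unmarked, at 4 genes. In RNA 19 of the 26 genes rose and 2 fell, where 23.4% and 21.4% of all 12220 genes did. The leading site, at -11592 bp from Pnpla3, a lipid droplet acyltransferase and lipase, had 94 GPS2 tags in WT and 0 in the LKO. It too is at the edge of the rule, 11 bp from a mark peak of the WT livers. Pnpla3 RNA rose from 10.1, 8.82, 10.8 and 8.34 CPM to 50.4, 64.4, 55.1 and 53.9 (2.73 ± 0.10, adjusted p = 9.9e-11, edgeR). NCOR there was 94.5, 105 and 68.4 in Gps2 WT and 90.1, 111 and 48.3 in the LKO, which overlap. PPARα was 166 in the pooled WT and 262, 258 and 215 in the LKO. GPS2 in the Ncor LKO was 41.9, 41.9 and 37.9 against 134, 85.6 and 45.0 in WT (adjusted p = 0.162).

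Other lists held fewer sites. Beside the RNA counts that follow, 23.4% of all 12220 genes rose and 21.4% fell. The circadian clock list had 2 unmarked sites among 90 GPS2 peaks, with 4 genes higher and 5 lower of 17, hepatocyte transcription factors 1 among 103 (5 genes higher and 11 lower of 20), secreted hepatocyte proteins 3 among 66 (9 higher, 2 lower of 16) and corepressor subunits 1 among 20 (at Tbl1xr1, 0 higher and 4 lower of 6). Developmental regulators and neuronal genes had 0 unmarked sites among 19 and 2 GPS2 peaks. Markers of other liver cells also moved in RNA: of 10 stellate cell markers 10 rose (summed 25.9 to 27.3 RPKM in WT and 41.7 to 47.9 in LKO), of 10 macrophage markers 8 rose and 1 fell (84.0 to 86.3 and 104 to 120), and 3 of 10 endothelial and 3 of 5 cholangiocyte markers rose. No marker of these lists that the table holds was at 0. Unmarked sites lay near 1 stellate cell marker (Pdgfrb, 2 sites), 4 endothelial markers (5 sites, the strongest in an intron of Pecam1), 1 cholangiocyte marker (Spp1, 3 sites) and 0 macrophage markers, and the part of these cells in the results was not tested.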

How the data were processed

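Chromatin of mouse livers was immunoprecipitated and sequenced by the authors, who aligned reads to mm9 with Bowtie2 and called peaks with HOMER. The authors deposited a peak list per library, whose score column is the constant 1, and per antibody a table of merged peaks with a peak score and raw tag counts per library. For RNA the authors deposited raw read counts per gene. Columns with the authors' own fold changes and p-values hold their comparisons and were not used. The 2 input libraries were not used. Genome builds named for the RNA differ, so no RNA coordinates are given.

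Peaks were intersected with bedtools 2.31.1, 1 shared bp counting as overlap. Tag counts were tested over every table peak with at least 1 tag by the quasi-likelihood test of edgeR 4.0.16 in R 4.3.3, scaled to total tags, which ranged from 8.7 M to 46.1 M per sample, the 3 PPARα libraries of Gps2 WT livers entering as 1 sample of 27.3 M, and with Benjamini-Hochberg adjusted p under 0.05 as the threshold. RNA counts were filtered with filterByExpr and scaled by TMM, and RPKM was computed from counts and the gene lengths of the table. DESeq2 1.42.0, TMM scaling, filterByExpr, a replicate block and leaving out each library were alternatives. Tags are given per 10000000 of the library. Shares have exact Clopper-Pearson intervals at 95%. Motifs and sequences were read from the mm9 genome with samtools 1.23.1.

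The 3 PPARα libraries of Gps2 WT livers differed by less than sampling noise (chi-square per degree of freedom 0.923 to 0.937, against at least 1.17 for all other pairs) and were summed and counted as 1 sample. Replicate numbers did not pair the samples: correlations of same-numbered deviations ranged from -0.273 to 0.335. Tested on simulated counts with 200 changed features per comparison (log2 fold change 2, dispersion 0.05 for every feature), 63% were recovered for PPARα in the Gps2 LKO and 88 to 100% in the others. The changed features were among those with more tags, and no simulated library stood apart as some real ones did. These shares check the procedure and do not give its power in the real data.

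Named sites were the 6 members with the most GPS2 tags, up to 4 rises and 4 falls of H3K27ac in the Ncor and Smrt lines and up to 3 of each in the factor comparisons, among peaks past the threshold whose groups did not overlap and with a mean of at least 30 tags, the 6 members with the most H3K27ac tags in both Gps2 LKO livers, and the leading member within 20000 bp of each gene list. Some sites that this rule names are not reported here. The members and lists were chosen with earlier results of these data known.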

Additional observations from a re-analysis of the deposited data

Results flagged for a closer look

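Among 78 groups of 4 RNA libraries, over 39 genes, 3 had 1 library far from the other 3, where chance gives about 1 in 20 groups. Filip1l was at 3.74 CPM in WT replicate 2, Palb2 at 0.227 CPM in LKO replicate 4 and Ppara at 342 CPM in LKO replicate 2.

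The H3K27ac effects of the Ncor and Smrt LKO differed by the edgeR interaction test at 30 table peaks upwards and 4 downwards at unmarked sites, and nearest Mup13 the difference was 2.66 on the log2 scale. Line and sex cannot be told apart in it.

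H3K4me3, which the comparisons above do not use, had a peak at 86 and 66 unmarked sites (1.16% and 0.892%) in the Gps2 LKO livers, where the rule sets WT to 0. Sites with H3K27ac and no H3K4me3, also at 0 in WT by definition, had one at 1090 and 688 (5.36% and 3.38%), a larger share.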

How the results depend on the processing

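Counts are given as higher and then lower, at unmarked sites. In this section a count without a share of the table shows only how the number moves. It does not set unmarked sites against other peaks or genes. DESeq2 gave 6 and 1 for H3K27ac in the Smrt LKO, 7 higher for GPS2 in the Ncor LKO, 2 and 2 for GPS2 in the Ppara KO, 14 and 9 for NCOR in the Gps2 LKO, 111 lower for NCOR in the Ppara KO, 1 and 1 for PPARα in the Gps2 LKO, 89 and 9 for PPARα in the Ncor LKO, and 123 and 2 for H3K27ac in the Gps2 LKO. TMM gave 20 and 30 for GPS2 in the Ncor LKO, 4 and 9 in the Ppara KO, 57 and 19 for NCOR in the Gps2 LKO, 50 and 287 in the Ppara KO, 110 and 36 for PPARα in the Gps2 LKO, 235 and 35 in the Ncor LKO, and 1 lower for the Ncor and Smrt difference. FilterByExpr gave 138 lower for GPS2 in the Ncor LKO (7.98%, near the 6.82% of the table), 41 lower in the Ppara KO and 1 lower for PPARα in the Ncor LKO. Without peaks that also cover another GPS2 peak there were 139 and 0 for H3K27ac in the Gps2 LKO and 16 higher for the difference. For RNA, genes within 20000 bp gave 286 and 264, and total-count scaling 354 and 1013. The cause of these changes was not tested.

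With a replicate block, although the numbers do not pair the samples, the counts were 157 and 7 for H3K27ac in the Ncor LKO (5.67% and 0.253%, beside 1.26% and 0.397%), 0 and 0 in the Smrt LKO, 565 and 5 in the Gps2 LKO (15.5% and 0.138%, beside 3.58% and 0.973%), 1 and 840 for GPS2 in the Ncor LKO (17.8% lower, beside 18.6% of the table), 0 and 0 in the Ppara KO, 34 and 19 for NCOR in the Gps2 LKO (0.524% and 0.293%, beside 0.202% and 0.155%), 7 and 380 in the Ppara KO (0.1% and 5.45%, beside 0.0913% and 1.62%), 0 and 0 for PPARα in the Ncor LKO, and 598 and 671 for RNA. The block for PPARα in the Gps2 LKO was not run, since its WT libraries count as 1.

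Leaving out 1 library at a time gave 47 to 277 higher and 6 to 17 lower for H3K27ac in the Ncor LKO, 0 and 0 in the Smrt LKO, 44 to 444 and 0 to 15 in the Gps2 LKO, 7 to 51 and 0 to 5 for the difference, 0 to 1 and 0 to 2968 for GPS2 in the Ncor LKO, 0 and 2 to 19 in the Ppara KO, 0 to 9 and 0 to 4 for NCOR in the Gps2 LKO, 4 to 13 and 262 to 570 in the Ppara KO, 1643 to 3084 and 3 to 14 for PPARα in the Gps2 LKO, 1 to 50 and 0 to 38 in the Ncor LKO, and 487 to 638 and 508 to 864 for RNA. The lowest or highest counts came without Ncor WT library 2 (47), Gps2 WT library 1 (44) and LKO library 1 (444) for H3K27ac, Ncor WT library 3 for GPS2 (2968) and PPARα (50 and 38), Ppara WT library 3 for NCOR (262) and LKO library 3 for PPARα in the Gps2 LKO (1643). Without 1 of the mark libraries 8501 to 9053 sites were unmarked.

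With a start site within 3000 bp the promoter share was 4.728%. With a peak in at least 1 library, in all, over the larger part of the site, or at sites with at least the median tags, PPARα was at 85.06%, 6.281%, 71.11% and 96.1%, NCOR at 94.03%, 39.65%, 83.87% and 98.52%, and GPS2 of other livers at 72.01%, 4.35%, 39.5% and 86.89%. H3K27ac in at least 1 Gps2 LKO liver was at 31.1%, and in both at 10.9% of sites with no mark within 1000 bp. In at least 1 and in all LKO livers it was at 22.2% and 5.5% in the Ncor line and 27.3% and 11.6% in the Smrt line.

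Directions turned for the PPARα median in the Ncor LKO without Ncor WT library 3 (-0.0416, in a range up to 0.44 over left-out libraries), for H3K27ac at Slc25a15 by DESeq2 (-0.0189), by TMM (-0.0115) and without WT library 2 (-0.0715, up to 0.138), and at Cbs without LKO library 2 (0.138) or WT library 1 (0.123), down to -0.158. By total counts RNA turned for Adgrl2 (-0.131), Adk (-0.118), Commd7 (-0.0171), Cyp2e1 (-0.0158), Pex2 (-0.0848), Rab10os (-0.101), Serpina1c (-0.0721) and Slc25a15 (-0.0686), and it turned for Adgrl2 without LKO library 2 (-0.0714, up to 0.113) and for Rab10os without LKO library 1 (-0.0165, up to 0.173). Of 440 values for 46 named peaks, 361 kept their direction and side of the threshold, and of 468 for 39 genes 413 did. GPS2 and polymerase II in the Gps2 line have 1 library per genotype, which limits them to counting error.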
